A study of Mus musculus with 21 samples.

Results

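The genes described here are 34 chaperones and components of the unfolded protein response (UPR) in Ba/F3 cells expressing JAK2-V617F. They are the genes of a list of 37 endoplasmic reticulum (ER), cytosolic and mitochondrial folding genes that have a value in all 4 expression tables of the series, which hold between 11355 and 13085 genes. Hspa1a, Hspa1b and Bag3 were not analysed here. A value in all 4 tables itself depends on expression, since the authors' methods name a filter on low expression. Beyond that, no expression value was used to choose the members, although the list was drawn up when results of these data were already known.

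Ba/F3 is a mouse pro-B cell line that normally needs interleukin-3, and JAK2-V617F is the constitutively active form of the kinase JAK2 found in myeloproliferative neoplasms. All 21 libraries come from this line, which carries JAK2-V617F in every group, the DMSO controls included. Groups of 3 libraries were treated for 6 h with 1 μM ruxolitinib (ruxolitinib-treated), with 1 μM CHZ868 (CHZ868-treated) or with the solvent DMSO (DMSO-treated). Further groups of 3 were exposed for 1 h to 1 μM ruxolitinib (Ruxo-wash) or 1 μM CHZ868 (CHZ868-wash), washed, and kept for 6 h without inhibitor, each beside its own DMSO-wash group. Ruxolitinib binds the active conformation of the kinase (type I) and CHZ868 the inactive conformation (type II). The comparisons ask how folding genes respond while JAK2 is inhibited and after the inhibitor is withdrawn.

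Secreted and membrane proteins fold in the ER with the help of the HSP70 protein BiP (Hspa5), the HSP90 protein GRP94 (Hsp90b1), the lectin chaperones calreticulin and calnexin, and disulfide isomerases. When unfolded proteins accumulate, the sensors IRE1α (Ern1), ATF6 and PERK (Eif2ak3) signal to the nucleus, through spliced XBP1, cleaved ATF6 and ATF4, and raise ER chaperones and the ER-associated degradation machinery (ERAD). In the cytosol, HSF1 plays the corresponding part for HSP70, HSP90 and their HSP40 partners. Cells of the B lineage are known for leaning on the IRE1α and XBP1 branch when they become antibody-secreting cells.

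Values are log2 CPM, the logarithm of read counts scaled to a common library size, so a difference of 1 is a doubling. The 3 tables from which whole reads could be recovered held 7880000 to 10670000 reads on listed genes in each library, and the depth of the table with Ruxo-wash is unknown. Pim1, a STAT5 target used to check the inhibitors, lay between 8.64 and 8.72 log2 CPM in DMSO-treated, 5.71 and 6.01 in ruxolitinib-treated and 5.34 and 5.63 in CHZ868-treated libraries. Receptor genes that define the line were present (Il3ra, Csf2rb, Ptprc, Cd79a and Cd79b among 6 of 12 listed markers). Ebf1, Pax5, Vpreb1, Igll1 and Rag1 were not analysed here, so those lineage markers could not be checked. Gata2, from a mast cell and basophil list, was at 9.27 to 9.82 log2 CPM in all libraries. Kit, Cpa3 and Fcer1a, the rest of that list, were not analysed here, so Gata2 alone does not name a cell type. Mitochondrial transcripts took 1.36% to 1.42% of the summed CPM in DMSO-treated libraries and 4.93% to 6.37% in CHZ868-treated libraries. They took 3.53% in ruxolitinib-treated replicate 2 against 1.7% and 1.72% in the others, and 5.33% in DMSO-wash replicate 3 of the CHZ868 experiment against 2.84% and 2.27%, and these 2 libraries stand apart from their groups. The labels do not say whether replicates were separate cultures, so p-values measure only the spread between these samples, and in bulk RNA fewer cells with a transcript cannot be told from less transcript per cell.

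CHZ868 treatment moved most of the folding genes, in both directions. The largest rises were in ER genes, with Dnajb9, an HSP40 partner of BiP that restrains IRE1α, up 2.67-fold, calreticulin (Calr) up 1.84-fold, Pdia3 up 1.68-fold and Hsp90b1 up 1.5-fold. Hyou1, an ER HSP70 relative and nucleotide exchange factor of BiP, fell to 0.55 of its DMSO level, and the sensors and transcription factors Ern1, Atf6 and Xbp1 all fell. Hspa5 itself, the reference target of the UPR, did not pass the test. Of the 34 genes, 16 rose and 10 fell (limma-trend, Benjamini-Hochberg adjusted p under 0.05), which is 47.1% and 29.4% of them, against 26.8% and 26.4% of all 11670 genes. With quantile normalization 12 members rose and 14 fell, against 3175 and 2935 of all 11670 genes. The balance of directions among the members therefore depends on the scaling, while 22 of the 26 genes were called in the same direction both ways. The median difference was 0.07 over the members and -0.01 over all genes. By size the members did not move farther than other genes, with a median absolute difference of 0.32 against 0.34 over all genes. With a minimum log2 difference of 0.58 added, 6 of the 34 members were called, and 2941 of the 11670 genes.

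Among the 11 ER chaperones and cofactors 5 rose and 2 fell. Dnajb9 (chromosome 12, 44205559 to 44210326, minus strand, GRCm38) was at 4.65, 4.63 and 4.78 log2 CPM in the 3 DMSO-treated libraries and at 6.12, 6.11 and 6.08 in the 3 CHZ868-treated libraries. Every CHZ868-treated library lay more than a doubling above every control. The difference was 1.42 ± 0.10 (SE, n = 3 each, adjusted p = 1.17e-08). Calr (chromosome 8, 84841850 to 84846934, minus strand), the soluble lectin chaperone, was at 9.28, 9.15 and 9.24 in DMSO-treated and 10.09, 10.03 and 10.17 in CHZ868-treated libraries. All CHZ868-treated libraries lay above all controls, and Calr rose by 0.88 ± 0.06 (adjusted p = 1.12e-08). Dnajb9 and Calr each have 1 near copy among the annotated pseudogenes (Gm6568 and Calr-ps).

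Hsp90b1 (chromosome 10, 86690209 to 86705509, minus strand) rose from 8.81, 8.75 and 8.78 to 9.48, 9.34 and 9.28 log2 CPM, by 0.59 ± 0.06 (adjusted p = 1.19e-06). Manf, a small secreted protein that binds BiP, rose by 0.48 ± 0.08 (adjusted p = 0.000134), and Dnajc3 (P58IPK), an HSP40 that also restrains PERK, by 0.36 ± 0.08 (adjusted p = 0.00126). None of these groups overlapped. Calnexin (Canx), the membrane-bound partner of calreticulin, differed by 0.10 with a 95% confidence interval of -0.04 to 0.24 and did not pass the test.

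Hspa5 was at 8.34, 8.32 and 8.25 log2 CPM in DMSO-treated and 8.17, 8.24 and 8.18 in CHZ868-treated libraries. The CHZ868-treated libraries were all lower, by a small margin, and the difference of -0.11 (95% confidence interval -0.23 to 0.01, adjusted p = 0.11) did not pass the test. Its partners Hyou1 and Sdf2l1 were lower by much more. Hyou1 (chromosome 9, 44379490 to 44392369, plus strand) was at 6.50, 6.42 and 6.42 in the controls and 5.45, 5.62 and 5.71 with CHZ868, a fall of 0.86 on the log2 scale (SE 0.09, adjusted p = 1.12e-06). Sdf2l1, a cofactor in the BiP complex, was at 4.65, 4.74 and 4.79 and at 3.86, 4.10 and 4.25, and fell by 0.66 (SE 0.14, adjusted p = 0.00123). Dnajb11 (-0.19, 95% confidence interval -0.39 to -0.00) and Creld2 (-0.32, -0.68 to 0.04), both UPR-induced proteins of the ER lumen, did not pass the test.

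Of the 4 protein disulfide isomerases 3 rose. Pdia3 (ERp57, chromosome 2, 121413775 to 121438687, plus strand), which works with calreticulin and calnexin on glycoproteins, was at 8.30, 8.33 and 8.25 log2 CPM in DMSO-treated and 9.03, 9.0 and 9.11 in CHZ868-treated libraries. The difference was 0.75 ± 0.06 (adjusted p = 3.16e-08), with no overlap. P4hb (PDI itself) rose by 0.19 (adjusted p = 0.00663) and Pdia6 by 0.18 (adjusted p = 0.0332), and Pdia4 differed by -0.04 (95% confidence interval -0.24 to 0.16). The Pdia3 gene overlaps Catsper2 on the other strand, and it is not stated whether reads were counted by strand. Other members also overlap genes on the other strand, among them Manf (3 genes), Tcp1 (2) and Syvn1 (1).

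Ern1, Xbp1 and Atf6, the 3 listed genes of UPR sensors and transcription factors, fell. Ern1, which encodes IRE1α, went from 7.31, 7.40 and 7.39 log2 CPM to 6.84, 6.89 and 6.95, a fall of 0.47 (SE 0.06, adjusted p = 1.98e-05). Xbp1, whose mRNA is the substrate of IRE1α, went from 6.21, 6.24 and 6.09 to 5.74, 5.75 and 5.81 and fell by 0.41 (SE 0.08, adjusted p = 0.000627). Atf6 went from 6.72, 6.61 and 6.52 to 6.17, 6.25 and 6.21 and fell by 0.40 (SE 0.08, adjusted p = 0.000432). In each of the 3 genes every CHZ868-treated library lay below every control. Gene totals do not separate spliced from unspliced Xbp1. In ERAD, the ubiquitin ligase Syvn1 (HRD1) rose by 0.29 (adjusted p = 0.0126) and Edem1, which extracts misfolded glycoproteins, fell by 0.25 (adjusted p = 0.0373), while Sel1l, the HRD1 partner, differed by 0.03 (-0.12 to 0.18) and Herpud1, a UPR-induced HRD1 cofactor, by -0.03 (-0.24 to 0.18).

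The cytosolic side was also split. Hspa4 (APG-2), an HSP110 protein that recycles HSP70, was at 8.38, 8.37 and 8.33 log2 CPM in DMSO-treated and 8.97, 8.78 and 8.96 in CHZ868-treated libraries and rose by 0.55 ± 0.06 (adjusted p = 3.13e-06). Its relative Hsph1 (HSP105) was at 6.85, 6.90 and 6.92 and at 6.72, 6.20 and 6.36 and fell by 0.46 (SE 0.10, adjusted p = 0.00169). Of these related HSP110 genes, the first was therefore higher and the second lower in every CHZ868-treated library. The HSP40 genes divided in the same way, with Dnajb1 up by 0.36 (adjusted p = 0.00627) and Dnaja1 down, at -0.28 (adjusted p = 0.00584). Hsf1, the transcription factor of the heat shock response, was at 5.20, 5.49 and 5.41 and at 5.74, 5.71 and 5.65 and rose by 0.33 (adjusted p = 0.0107).

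Mitochondrial HSP70 (Hspa9), which imports and folds matrix proteins, went from 9.34, 9.19 and 9.17 to 8.56, 8.71 and 8.74 log2 CPM and fell by 0.56 (SE 0.06, adjusted p = 3.88e-06). Of the 3 subunits of the cytosolic chaperonin TRiC, Cct2 rose by 0.32 (adjusted p = 0.000285) and Tcp1 by 0.31 (adjusted p = 0.000144), and Cct3 differed by -0.08 (-0.21 to 0.06). The abundant chaperones Hspa8, the constitutive HSP70 (0.23, adjusted p = 0.00615), Hsp90ab1 (0.18, adjusted p = 0.0301) and Hsp90aa1 (-0.20, adjusted p = 0.0064) passed the test with small differences, but quantile normalization gave Hsp90ab1 a difference of -0.57 and Hspa8 one of 0.02 (adjusted p = 0.85). Hspa8 has 14 near copies in the annotation, 13 of them pseudogenes, Hsp90aa1 has 5 and Dnaja1 has 4. Hsp90ab1 and Cct3 have 2 each and Hspa9 has 1. Reads of these genes could have been split between copies. CHZ868-treated libraries also held the higher mitochondrial share given above, and its part in these results was not tested.

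**Figure D1:**
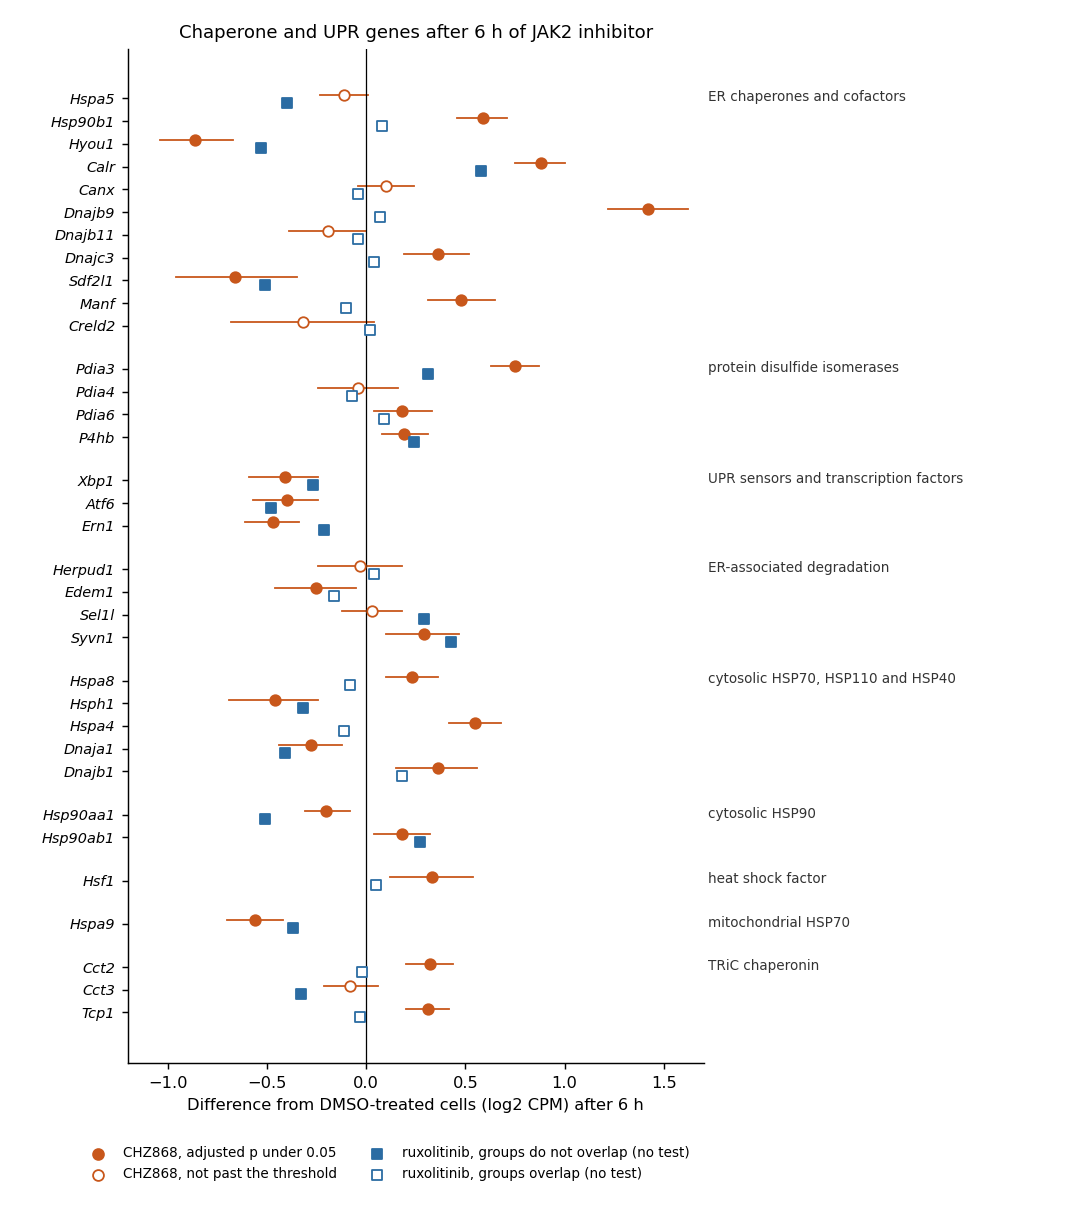
Difference from DMSO-treated cells after 6 h, in log2 CPM, for the 34 genes by role. Circles show CHZ868 with the 95% confidence interval and are filled where the adjusted p was under 0.05, and squares show ruxolitinib after median centring, filled where the 3 and 3 libraries did not overlap, with no test. Dnajb9 stands apart at 1.42 with CHZ868 and 0.07 with ruxolitinib, while Xbp1, Atf6 and Ern1 lie below 0 with both inhibitors.

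The ER stress element (ERSE), the site through which ATF6 and XBP1 act on ER chaperone genes, is shown for the members that carry it because it marks the classical UPR targets and its carriers did not move as a unit. RefSeq promoter windows (GRCm38.p6, 250 bases before to 50 after the start) were found for 26 of the 34 genes. The pattern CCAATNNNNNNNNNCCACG, searched on both strands, was in 8 of them (30.8%), against 0.137% of 27025 genes with a window. Among the 8450 genes with a CHZ868 6 h result and a window the share was 0.166%. The members were listed as folding and UPR genes, so their high share follows from the list and is not a result of these data. Of the 12 genes with a window that rose with CHZ868, 5 carried it (Calr, Hsp90b1, Dnajc3, Pdia6 and Syvn1), of the 6 that fell 0, and of the 8 that did not pass the test 3 (Hspa5, Canx and Creld2). The genes that fell include 4 with no window here, Hyou1, Atf6, Hspa9 and Hsp90aa1, so the 0 leaves out Hyou1, the largest fall. Each site is printed 5′ to 3′ on the strand on which it reads forward, with 5 bases on either side and the fixed letters in capitals.
Hspa5, chr2:34772020-34772048, plus strand: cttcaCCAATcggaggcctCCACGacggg
Calr, chr8:84847070-84847098, plus strand: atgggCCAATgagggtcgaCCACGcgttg
Hsp90b1 upstream site, chr10:86705633-86705661, minus strand: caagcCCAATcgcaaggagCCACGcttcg
Hsp90b1 downstream site, chr10:86705528-86705556, plus strand: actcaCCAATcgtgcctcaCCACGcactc
Dnajc3, chr14:118937822-118937850, plus strand: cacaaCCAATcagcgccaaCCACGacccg
Pdia6, chr12:17266486-17266514, plus strand: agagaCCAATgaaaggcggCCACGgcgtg
Syvn1, chr19:6046527-6046555, plus strand: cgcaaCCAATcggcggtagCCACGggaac
Canx, chr11:50325795-50325823, minus strand: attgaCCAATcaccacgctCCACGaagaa
Creld2, chr15:88819515-88819543, minus strand: gtggaCCAATtgaggctcgCCACGagaag

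Hspa5 and Calr thus carry the same fixed letters, at positions -65 to -47 from the start in Hspa5 and -162 to -144 in Calr, and differed with CHZ868 by -0.11 and 0.88. The related pattern ERSE-II, ATTGGNCCACG, whose first letters are CCAAT read on the other strand, was in Dnajb11 and Herpud1 (7.69% of the 26, against 0.0444% of all genes), and neither passed the test. The UPR element TGACGTGG and the STAT pattern TTCNNNGAA were in 0 of the 26 windows, against 0.714% and 9.55% of all genes, and the heat shock element GAANNTTCNNGAA / TTCNNGAANNTTC was in Hsph1 alone (3.85%, against 0.662%). No member carried more than 1 of these patterns. A match is a description of letters, not a site shown to be used. The 250 bases before the start are printed for Dnajc3 and Syvn1, which carry the ERSE and rose, for Herpud1, which carries ERSE-II and did not pass the test, and for Sdf2l1, which carries none of these patterns and fell, with fixed letters of a match in capitals.
Dnajc3, chr14:118937682-118937931, plus strand: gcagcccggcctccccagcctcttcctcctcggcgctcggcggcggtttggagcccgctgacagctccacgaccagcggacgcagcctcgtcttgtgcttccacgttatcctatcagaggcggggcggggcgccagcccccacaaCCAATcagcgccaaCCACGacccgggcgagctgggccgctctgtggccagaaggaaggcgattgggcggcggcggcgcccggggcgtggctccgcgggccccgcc
Syvn1, chr19:6046326-6046575, plus strand: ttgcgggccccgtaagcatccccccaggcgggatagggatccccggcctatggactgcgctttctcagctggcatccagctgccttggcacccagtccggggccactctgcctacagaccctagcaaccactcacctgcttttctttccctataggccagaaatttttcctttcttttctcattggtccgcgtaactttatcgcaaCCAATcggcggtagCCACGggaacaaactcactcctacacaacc
Herpud1, chr8:94386179-94386428, plus strand: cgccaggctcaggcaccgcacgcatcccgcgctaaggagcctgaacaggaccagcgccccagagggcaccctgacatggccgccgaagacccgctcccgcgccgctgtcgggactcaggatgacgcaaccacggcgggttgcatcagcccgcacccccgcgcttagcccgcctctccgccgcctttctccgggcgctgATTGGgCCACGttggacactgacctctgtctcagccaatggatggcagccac
Sdf2l1, chr16:17132384-17132633, minus strand: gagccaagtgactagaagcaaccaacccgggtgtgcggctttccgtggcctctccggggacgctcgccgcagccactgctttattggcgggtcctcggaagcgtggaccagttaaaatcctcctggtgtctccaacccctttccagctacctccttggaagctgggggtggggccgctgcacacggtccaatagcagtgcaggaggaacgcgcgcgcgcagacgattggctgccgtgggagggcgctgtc

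Genes of the same pathways that are not members were taken from a list of 81, of which 78 were in the CHZ868 table. Of these 25 (32.1%) rose and 21 (26.9%) fell, shares near the 26.8% and 26.4% of all genes, so the list as a whole is not a result. The PERK arm showed the largest falls. Trib3, an ATF4 target and pseudokinase, fell by 2.67 on the log2 scale (adjusted p = 7.93e-12) and Ddit3 (CHOP) by 1.56 (adjusted p = 1.7e-06). In all, 4 of 6 PERK-arm genes fell and 0 rose by limma-trend. The PERK gene itself, Eif2ak3, named after its values were seen because it is the remaining UPR sensor, was higher in every CHZ868-treated library, by 0.26, and did not pass the test (adjusted p = 0.0891). Among 10 translocon genes 5 rose, led by Tram1 and Ssr2 (0.73 each), and 2 fell, and among 6 prefoldin genes, which hand nascent proteins to TRiC, 4 rose, led by Pfdn5 (0.95) and Pfdn1 (0.50). Of 8 HSP90 cochaperones 4 fell, with Fkbp5 at -0.73, and 1 rose, Stip1 (HOP) at 0.80. Of 7 mitochondrial chaperones and proteases 3 fell, with the protease Lonp1 at -0.90 (adjusted p = 3.19e-08), and 1 rose.

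**Figure D2:**
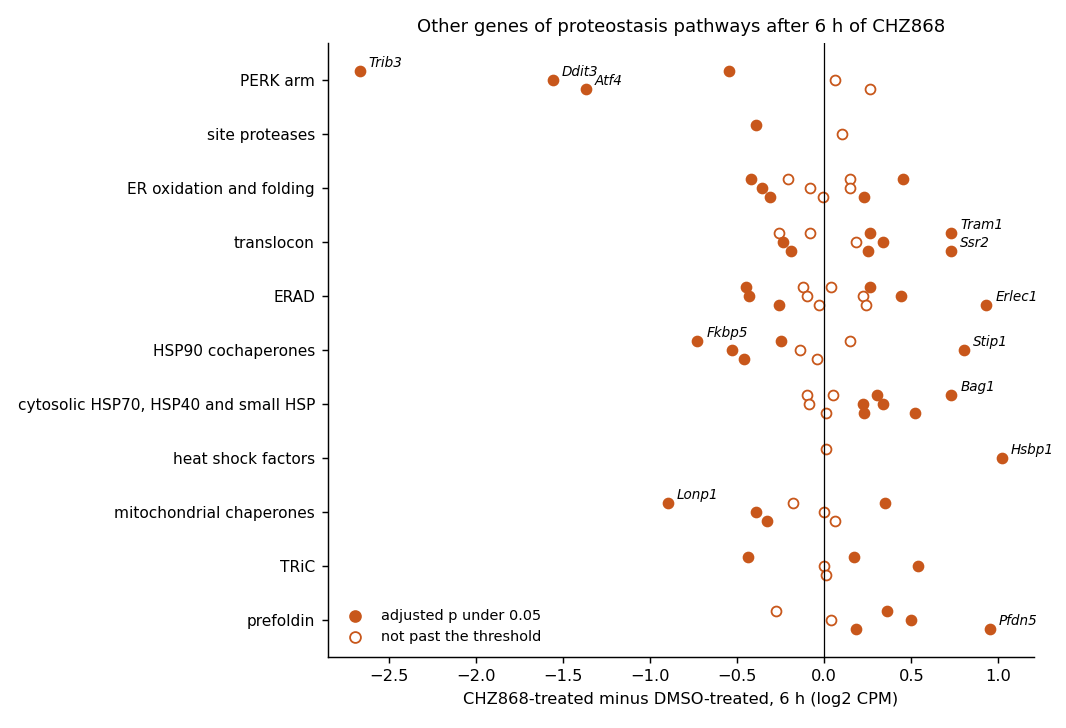
Difference between CHZ868-treated and DMSO-treated cells after 6 h, in log2 CPM, for 78 further proteostasis genes by role. Filled points had an adjusted p under 0.05. Trib3 (-2.67) and Ddit3 (-1.56) of the PERK arm lie farthest to the left, and Hsbp1 (1.02), Pfdn5 (0.95) and Erlec1 (0.93) farthest to the right.

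After 6 h with ruxolitinib, BiP (Hspa5), Hyou1 and Sdf2l1 and the sensor and transcription factor genes Ern1, Atf6 and Xbp1 were lower, and calreticulin was higher. The other genes that act with BiP overlapped their controls, with Dnajb9 at 0.07, Dnajc3 at 0.04, Dnajb11 at -0.04 and Manf at -0.10, so 3 of 11 ER chaperones and cofactors were lower without overlap and 1 was higher. Ruxolitinib-treated and DMSO-treated libraries stand in separate tables, so the median of the 11624 shared genes was subtracted from every library. The values that follow are on that centred log2 scale, and no test was run. Of the 34 genes 6 (17.6%) were higher and 11 (32.4%) lower with no overlap between the ruxolitinib and DMSO libraries, against 24.6% and 20.1% of all shared genes. The median difference was -0.04 over the members and 0.04 over all shared genes. With quantile normalization 4 were higher and 13 lower without overlap, a setting for which the share over all genes is not given here.

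Calr was at 4.04, 3.90 and 3.99 in DMSO-treated and 4.47, 4.68 and 4.53 in ruxolitinib-treated libraries, a difference of 0.58 with no overlap. Syvn1 was at 0.95, 0.86 and 0.88 in the controls and 1.11, 1.61 and 1.25 with ruxolitinib (a difference of 0.43), and its partner Sel1l was at 1.37, 1.29 and 1.32 and at 1.61, 1.69 and 1.53 (0.29). Both ERAD genes were higher in every treated library, as was P4hb (0.24). Hsp90ab1 was at 6.55, 6.48 and 6.52 and at 6.72, 6.87 and 6.75, a difference of 0.27 that was 0.00 with quantile normalization. For Pdia3, with a difference of 0.31 and no overlap, the 3 ruxolitinib-treated libraries were at 3.25, 3.60 and 3.20 and the controls at 3.05, 3.08 and 3.01, so replicate 2, the library with the higher mitochondrial share, lay well above the other ruxolitinib-treated libraries. Leaving out each library in turn, the Pdia3 difference ranged from 0.18 to 0.38.

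Hyou1 was at 1.25, 1.17 and 1.18 in DMSO-treated and 0.78, 0.57 and 0.67 in ruxolitinib-treated libraries, a difference of -0.53. Sdf2l1 was at -0.60, -0.51 and -0.45 and at -0.94, -1.28 and -0.87, a difference of -0.51. Hspa5 was at 3.09, 3.07 and 3.01 and at 2.79, 2.56 and 2.62, a difference of -0.40. BiP and both of these cofactors were therefore lower in every ruxolitinib-treated library. Hsp90aa1, the inducible cytosolic HSP90, was at 5.37, 5.33 and 5.38 and at 4.91, 4.89 and 4.75 (-0.51), and Dnaja1 at 1.89, 1.86 and 1.96 and at 1.57, 1.45 and 1.46 (-0.41), both with the limit on near copies given above. Atf6, Xbp1 and Ern1 were lower without overlap. Atf6 was at 1.47, 1.35 and 1.27 and at 0.77, 1.14 and 0.75 (-0.48), Xbp1 differed by -0.27 and Ern1 by -0.21. Also lower were Hspa9 (-0.37), Cct3 (-0.33) and Hsph1 (-0.32). Unlike these, Dnajb9 differed by 0.07, with ruxolitinib-treated libraries at -0.73, -0.09 and -0.66 on either side of the controls at -0.60, -0.62 and -0.47. Without ruxolitinib-treated replicate 2, 7 genes were higher and 16 lower without overlap. Leaving out a library makes non-overlap easier for every gene. The share over all genes in that setting is not given here, so the rise is not a result about the members. In the wider list Trib3 (-1.43) and Atf4 (-0.74) were lower without overlap, and 14 of the 78 genes (17.9%) were higher and 21 (26.9%) lower, against 24.6% and 20.1% of shared genes.

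The inhibitors were compared at the same dose and time, again on centred values and with no test, and they share the DMSO-treated libraries as controls. Dnajb9 set them apart most. It was at 0.90, 0.88 and 0.86 in CHZ868-treated and -0.73, -0.09 and -0.66 in ruxolitinib-treated libraries, 1.38 higher with CHZ868, and 1.58 higher without ruxolitinib-treated replicate 2. Hspa4 was at 3.75, 3.55 and 3.75 against 3.01, 3.17 and 2.83 (0.68 higher), Manf at 1.31, 1.18 and 1.25 against 0.66, 0.76 and 0.51 (0.61 higher), and Hsp90b1 at 4.26, 4.11 and 4.07 against 3.56, 3.79 and 3.50 (0.53 higher). In all of these the groups did not overlap. In all, 13 genes (38.2%) were higher and 3 (8.82%) lower in every CHZ868-treated library, against 16.7% and 18.6% of shared genes. Without centring these counts were 12 and 6, and with quantile normalization 11 and 5. Shares over all genes under these scalings are not given here.

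Pdia3 followed, at 3.81, 3.77 and 3.89 against 3.25, 3.60 and 3.20 (0.47 higher), and all 3 TRiC subunits were higher (Tcp1 0.37, Cct2 0.36 and Cct3 0.28). Hspa5 was higher with CHZ868 than with ruxolitinib by 0.32, at 2.95, 3.01 and 2.96 against 2.79, 2.56 and 2.62. The genes lower with CHZ868 were Hyou1 (0.23, 0.39 and 0.49 against 0.78, 0.57 and 0.67, a difference of -0.30), Ern1 (1.62, 1.66 and 1.73 against 1.85, 2.01 and 1.88, -0.24) and Sel1l (1.46, 1.38 and 1.33 against 1.61, 1.69 and 1.53, -0.22). Differences from DMSO were taken from the deposited values for CHZ868 and from centred values for ruxolitinib, so their scales are not the same. Side by side, Hyou1 was at -0.86 with CHZ868 and -0.53 with ruxolitinib, Atf6 at -0.40 and -0.48, Xbp1 at -0.41 and -0.27, and Calr at 0.88 and 0.58. The tables were normalized separately, so inhibitor and table cannot be told apart in these values.

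**Figure D3:**
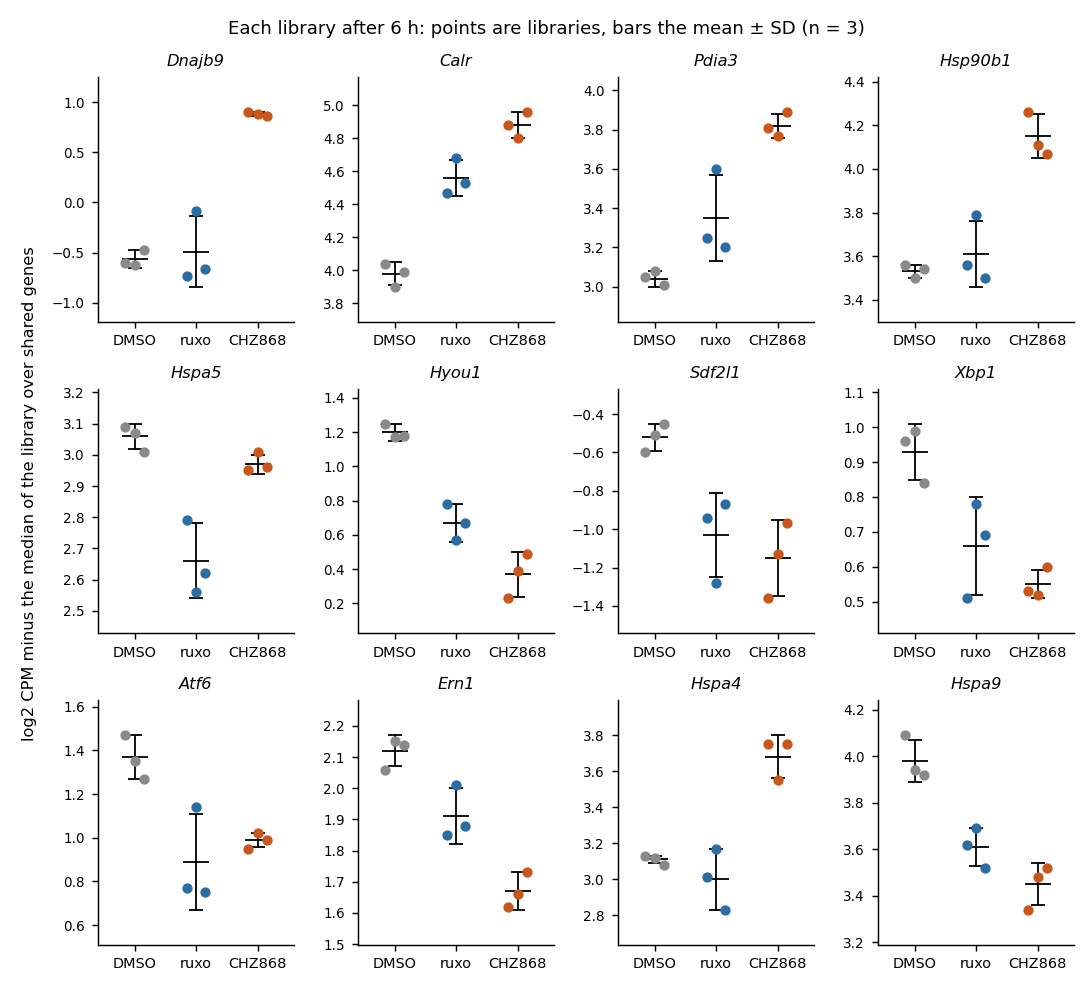
Each library after 6 h, as log2 CPM minus the median of the library over shared genes, for 12 of the genes, with points for libraries and bars for the mean ± SD of 3 libraries; the vertical scale differs between panels. Dnajb9 and Hspa4 lie higher in every CHZ868-treated library than in any other library shown, Calr lies highest with CHZ868 (4.80 to 4.96), between with ruxolitinib (4.47 to 4.68) and lowest with DMSO (3.90 to 4.04), and Hspa5 is lowest with ruxolitinib (2.56 to 2.79).

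After ruxolitinib was washed out for 6 h, no folding gene passed the test against DMSO-wash. Limma-trend called 0 of the 34 genes, against 0.0229% of 13085 genes, and 0 under each of the limma alternatives run, with 2 members (5.88%, against 7.03% of all genes) at an unadjusted p under 0.05. The differences ran from -0.24 to 0.15, with a median of 0.00. The smallest unadjusted p-values belonged to Hspa8, Creld2 and Hsp90ab1. Hspa8 was at 11.06, 11.08 and 11.06 log2 CPM in Ruxo-wash and 11.03, 10.95 and 10.98 in DMSO-wash libraries, a difference of 0.08 (95% confidence interval 0.03 to 0.14, adjusted p = 0.515). Creld2 was at 6.10, 6.08 and 6.08 and at 5.89, 6.03 and 5.90, a difference of 0.15 (0.02 to 0.28, adjusted p = 0.668). Hsp90ab1 was at 11.69, 11.72 and 11.70 and at 11.68, 11.68 and 11.67, a difference of 0.03 (-0.00 to 0.06, adjusted p = 0.721), and -0.01 with quantile normalization. In these 3 genes every Ruxo-wash library was above every control by a small margin. Of genes that had no overlap with ruxolitinib present, the washout difference was for Hyou1 0.01 (-0.10 to 0.12), for Hspa5 0.05 (-0.01 to 0.11), for Atf6 -0.01 (-0.18 to 0.15) and for Calr -0.03 (-0.09 to 0.02). In the wider list 0 of 79 genes passed the test.

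After CHZ868 was washed out, 3 of the 34 genes passed the test, all lower than in DMSO-wash. They were Pdia3 and Hsf1, both of which had risen while CHZ868 was present, and the ERAD cofactor Herpud1. None rose, against 1.96% of 11355 genes, and the 8.82% that fell compares with 2.07% of all genes. The median difference was -0.13 over the members and 0.01 over all genes. Of the 34 differences 26 were below 0, against 5590 of the 11355 over all genes. At an unadjusted p under 0.05 there were 10 members (29.4%, against 24.4% of all genes), and voom on recovered reads called 4.

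Hsf1 was at 5.07, 5.09 and 5.13 log2 CPM in CHZ868-wash and 5.57, 5.48 and 5.68 in DMSO-wash libraries, and fell by 0.48 (SE 0.10, adjusted p = 0.0408). Herpud1 was at 6.33, 6.33 and 6.48 and at 6.81, 6.77 and 6.93, and fell by 0.45 (SE 0.09, adjusted p = 0.0331). Pdia3 was at 9.55, 9.58 and 9.67 and at 10.01, 9.87 and 10.19, and fell by 0.42 (SE 0.10, adjusted p = 0.0454). In each of the 3 genes the groups did not overlap and DMSO-wash replicate 3 was the highest library. Calr (-0.39, adjusted p = 0.055) and Syvn1 (-0.44, adjusted p = 0.0735) had no overlap either and did not pass the test. Dnajb9, the gene most raised at 6 h, was at 5.28, 4.99 and 5.20 in CHZ868-wash and 5.27, 4.81 and 5.96 in DMSO-wash libraries, a difference of -0.19 (95% confidence interval -0.70 to 0.32). DMSO-wash replicate 3 was the highest of these libraries and replicate 2 the lowest, and leaving out each library in turn moved the difference between -0.45 and 0.12. Hspa5 differed by -0.02 (-0.22 to 0.18), Hyou1 by -0.01 (-0.23 to 0.20) and Xbp1 by -0.14 (-0.32 to 0.04).

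These calls depended on single libraries. Limma-trend called 0 members when CHZ868-wash replicate 1, 2 or 3 or DMSO-wash replicate 1 was left out. It called 5 when DMSO-wash replicate 2 was dropped, and 8 (1 higher and 7 lower) on dropping its replicate 3, the library with the mitochondrial share of 5.33%. Over all 11355 genes the calls rose as well in these 2 runs, to 1298 and 1426, against 457 with every library. Without the mean-variance trend limma called 0 members and 0 of all genes. In the wider list 3 of 78 genes rose (Pfdn4, Ptges3 and Vbp1, 3.85%) and 1 fell (Stip1, at -0.54, 1.28%), against 1.96% and 2.07% of all genes.

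**Figure D4:**
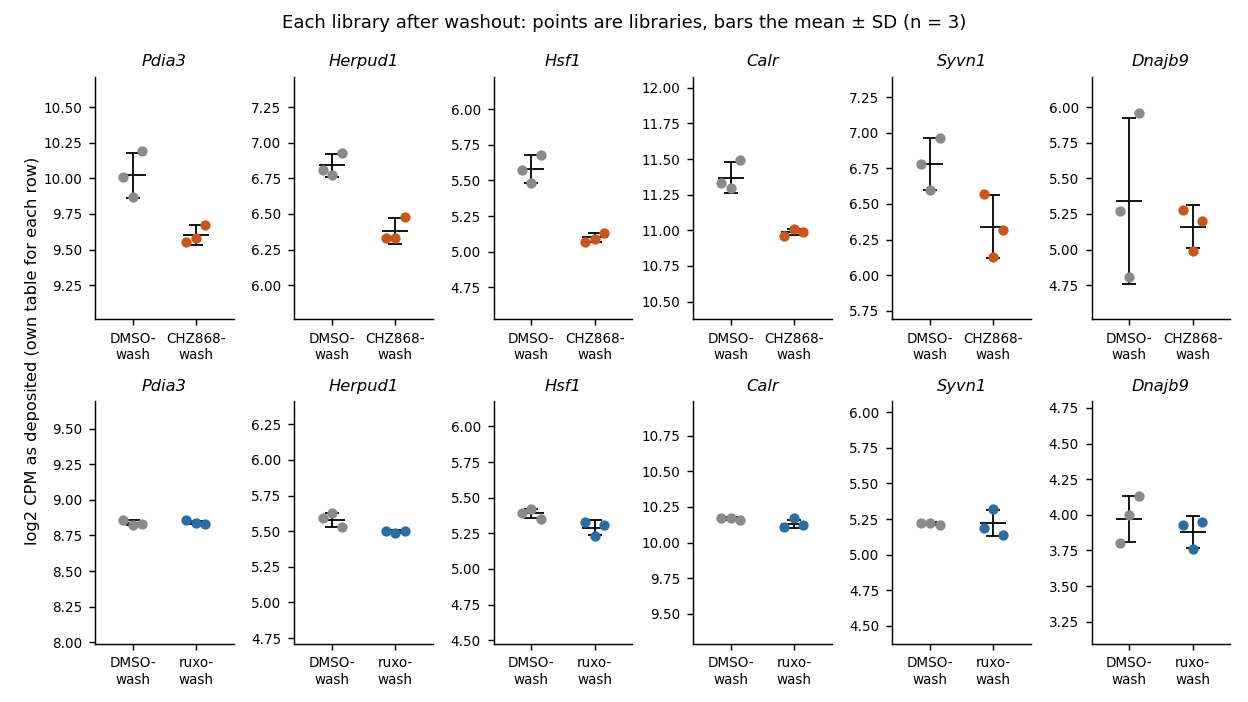
Each washout library, as deposited log2 CPM, for 6 of the genes, with points for libraries and bars for the mean ± SD of 3 libraries; each panel spans 1.7 log2 units and each row comes from its own table. CHZ868-wash libraries lie below DMSO-wash for Pdia3, Herpud1, Hsf1, Calr and Syvn1, and the spread between Ruxo-wash and DMSO-wash is small.

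The CHZ868 effect at 6 h was tested against the CHZ868 effect after washout in a single fit over 11175 genes. The effects come from separate experiments with 6 h and 1 h of exposure, and their controls stood at other levels in tables normalized separately (Hspa5 at a mean of 8.30 log2 CPM in DMSO-treated and 10.66 in DMSO-wash libraries, Hyou1 at 6.45 and 8.04), so washout, exposure and experiment cannot be told apart. Dnajb9 showed the largest difference between the effects (1.42 at 6 h and -0.19 after washout, a difference of 1.61 ± 0.27, adjusted p = 0.000142), followed by Calr (1.26 ± 0.11, adjusted p = 2.22e-07), Pdia3 (1.18 ± 0.11, adjusted p = 5.98e-07) and Hsf1 (0.81 ± 0.14, adjusted p = 0.000175). Hsp90b1 (0.77 ± 0.11) came next. On the other side Hyou1 (-0.84 ± 0.13, adjusted p = 5.82e-05), Hspa9 (-0.56 ± 0.11), Dnaja1 (-0.53 ± 0.11), Hsph1 (-0.52 ± 0.14) and Edem1 (-0.50 ± 0.16) were lower at 6 h than after washout. After washout Hsp90b1 was at 10.39, 10.43 and 10.44 log2 CPM in CHZ868-wash and 10.60, 10.48 and 10.74 in DMSO-wash. Hyou1 was at 8.02, 8.02 and 8.02 and at 8.10, 8.18 and 7.84 in these groups, which overlapped. Hspa9 was at 9.77, 9.85 and 9.83 and at 9.83, 9.70 and 9.92, and Hsph1 at 7.83, 7.72 and 7.66 and at 7.72, 7.66 and 7.67, also with overlap. For Edem1 every CHZ868-wash library (6.59, 6.51 and 6.59) lay above every DMSO-wash library (6.45, 6.44 and 6.05), and that difference of 0.25 did not pass the test. At 6 h Edem1 was at 6.14, 6.10 and 6.03 with DMSO and 5.63, 5.90 and 5.98 with CHZ868, and Dnaja1 at 7.14, 7.11 and 7.21 and at 7.01, 6.87 and 6.73. In all 16 genes had a higher and 8 a lower effect at 6 h, 47.1% and 23.5% of the members, against 23.2% and 23.8% of all genes. The counts were 17 and 9 if the third DMSO-wash library was left out and 11 and 11 with quantile normalization. Over all genes they were 2586 and 2602 in the first case and 2628 and 2596 in the second. Of the 26 genes called at 6 h, 23 were called here in the same direction, which the shared CHZ868-treated and DMSO-treated libraries favour. Sdf2l1 (-0.47, 95% confidence interval -0.90 to -0.04, adjusted p = 0.0698) and Atf6 (-0.35, -0.64 to -0.05, adjusted p = 0.0503) did not pass the test.

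**Figure D5:**
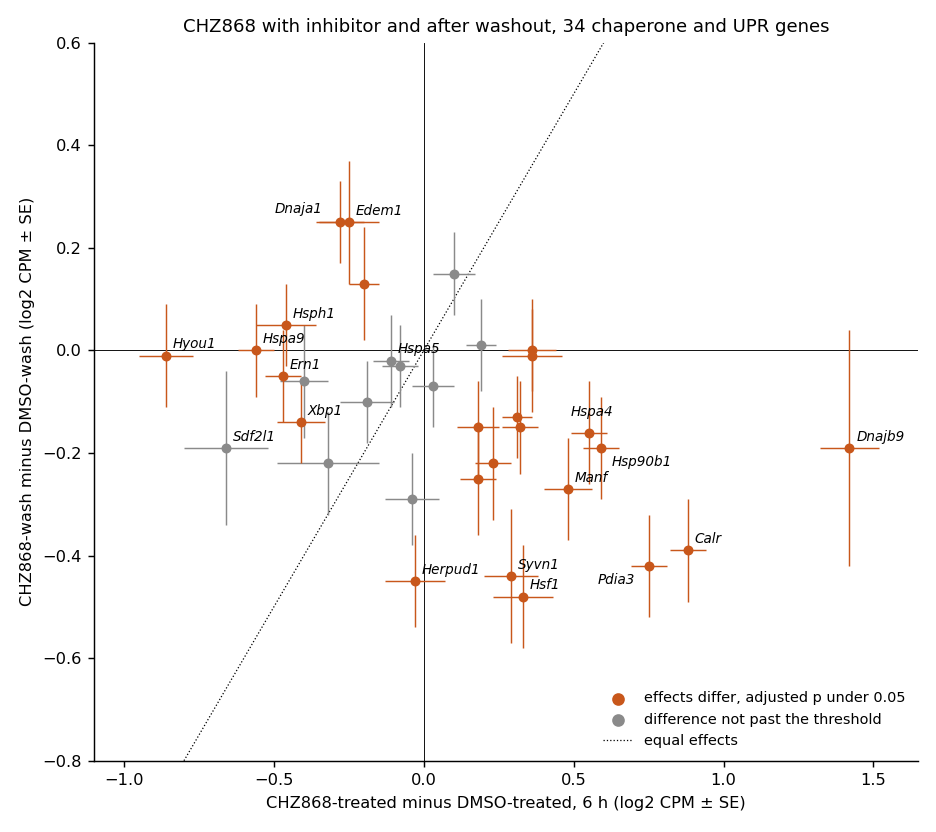
CHZ868 effect on each of the 34 genes with inhibitor present for 6 h (horizontal) and after washout (vertical), in log2 CPM ± SE. Coloured points differ between the effects at an adjusted p under 0.05 and the dotted line marks equal effects; Dnajb9, Calr and Pdia3 lie far to the right and below 0, and Hyou1 far to the left near 0.

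The ruxolitinib and CHZ868 washout effects were compared over the 10078 genes of both washout tables. Each inhibitor was washed out in its own experiment, and the 2 factors cannot be told apart. Limma-trend called 0 members, against 1.9% of all genes, with 13 (38.2%) at an unadjusted p under 0.05, against 18.9% of all genes at that level. The smallest p-values belonged to Pdia3, higher after ruxolitinib washout by 0.43 (95% confidence interval 0.20 to 0.66, adjusted p = 0.0566), Dnaja1, lower after it (-0.30, -0.46 to -0.13, adjusted p = 0.0602), and Calr (0.35, 0.15 to 0.55, adjusted p = 0.0641). Pdia3 was at 8.86, 8.84 and 8.83 log2 CPM in Ruxo-wash and 8.86, 8.82 and 8.83 in its DMSO-wash libraries, and its separate effects were 0.01 after ruxolitinib and -0.42 after CHZ868. Dnaja1 was at 7.49, 7.47 and 7.5 and at 7.5, 7.59 and 7.52 in that experiment, and in the CHZ868 experiment at 7.99, 8.04 and 8.0 in CHZ868-wash and 7.78, 7.71 and 7.81 in DMSO-wash libraries. Its effects were -0.05 and 0.25, with the limit on near copies. Calr was at 10.11, 10.17 and 10.12 in Ruxo-wash and 10.17, 10.17 and 10.16 in DMSO-wash libraries, and at 10.96, 11.01 and 10.99 and at 11.33, 11.30 and 11.49 in the CHZ868 experiment. The count rose to 6 members when the second DMSO-wash library of the CHZ868 experiment was left out, and to 5 when the third was. Over all 10078 genes the calls rose as well, to 628 and 530, against 191 with every library.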

How the data were processed

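RNA-seq libraries of Ba/F3 JAK2-V617F cells were grouped by their labels into 7 groups of 3. The authors deposited log2 CPM values in 4 tables, with a small constant added. The authors' methods name kallisto on GRCm38, biomaRt, edgeR, a filter on low expression, TMM, voom and limma. By contrast, the authors' processing notes to the repository name STAR 2.7.3a, edgeR 4.0.16 and GRCm39, and which procedure made which table is not given in the sources used here. In the tables of the 6 h groups and of the CHZ868 washout, 100% of low values (up to 100 reads) were whole reads within 0.1 once the constant was removed. Those of the ruxolitinib washout were not whole.

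Each comparison within a table was fitted by limma-trend (limma 3.58.1, R 4.3.3) on the deposited log2 CPM of the groups compared, adjusting p-values by Benjamini-Hochberg across every gene fitted, with a threshold of 0.05. The differences between effects were contrasts over 12 libraries and shared genes. Comparisons across the 6 h tables were descriptions after median centring. The fits were tested on simulated data. Alternatives were no trend, voom on recovered reads, robust empirical Bayes, median centring, quantile normalization, removal of genes under a mean of 1 or 3, pseudocounts of 1 and 5, stricter thresholds, the replicate number as a block, and omission of each library. Values were analysed and plotted in Python 3.11.15 with pandas 2.3.3, numpy 2.4.6 and matplotlib 3.10.9.

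The members and lists were chosen with earlier results of these data known. Values in every library were given for the 5 largest rises and 5 largest falls among called (or non-overlapping) members, or for the 3 smallest p-values where under 3 were called; a few further members were named where their role is described. Positions came from GENCODE on GRCm38, promoter windows from RefSeq, and near copies from blastn 2.17.0 of the longest transcript (at least 200 bases at 90% identity). The study's counting may differ from this annotation.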

Additional observations from a re-analysis of the deposited data

Results flagged for a closer look

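Of the members, 24 had CHZ868 effects that differed between 6 h with inhibitor and washout (limma contrast, adjusted p under 0.05), given here as the 6 h effect minus the washout effect in log2 units. Among ER chaperones and isomerases these were Dnajb9 at 1.61, Calr at 1.26, Pdia3 at 1.18, Hsp90b1 at 0.77, Manf at 0.75, Dnajc3 at 0.35, Pdia6 at 0.34 and Hyou1 at -0.84. Among UPR sensors and ERAD genes they were Syvn1 at 0.73, Herpud1 at 0.43, Xbp1 at -0.27, Ern1 at -0.42 and Edem1 at -0.50. In the cytosol they were Hsf1 at 0.81, Hspa4 at 0.70, Cct2 at 0.47, Hspa8 at 0.44, Tcp1 at 0.44, Hsp90ab1 at 0.43, Dnajb1 at 0.37, Hsp90aa1 at -0.32, Hsph1 at -0.52 and Dnaja1 at -0.53, and Hspa9 of the mitochondria was at -0.56. Herpud1 was called in this contrast and not at 6 h, where it differed by -0.03, since its difference lay in the washout (-0.45).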

How the results depend on the processing

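An added minimum of 0.58 on the log2 difference left 6 members for CHZ868-treated, 0 for CHZ868-wash and 9 for the difference between CHZ868 effects. Over all genes it left 2941 of 11670, 174 of 11355 and 3780 of 11175. For ruxolitinib-treated it left 1 member and for CHZ868 against ruxolitinib 3, comparisons for which the count over all genes is not given here. CHZ868-wash also gave 0 members at an adjusted p under 0.01 and 0 without the trend, and the difference between washout effects gave 1 with quantile normalization. Leaving out each library in turn gave 22 to 28 members for CHZ868-treated, 0 for Ruxo-wash and 0 to 8 for CHZ868-wash. It gave 0 to 6 for the difference between washout effects and 20 to 26 for the difference between CHZ868 effects. Counts without overlap were 17 to 23 for ruxolitinib-treated and 17 to 22 for CHZ868 against ruxolitinib. Leaving out a library can only keep or raise a count without overlap, so these ranges do not measure stability. Their counts over all genes are not given here. Over all genes, CHZ868-wash gave 457 calls, 0 without the trend and 0 to 1426 when a library was left out. Leaving out a library gave 5081 to 6426 calls over all genes for CHZ868-treated. It gave 4663 to 5583 for the difference between CHZ868 effects and 5 to 628 for the difference between washout effects. Quantile normalization reversed Hsp90ab1 (-0.57 at 6 h of CHZ868, -0.01 for Ruxo-wash and -0.58 for the difference between CHZ868 effects) and Hspa8 (-0.11 for that difference), and the cause was not tested. Over the values of single members at 6 h of CHZ868, 390 kept their direction and call, 25 kept the direction and lost the call, and 1 reversed. Voom on recovered reads was not run where Ruxo-wash enters, since its table gave no whole reads.

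Replicate numbers are shared between groups, and the deviations of same-numbered libraries had correlations of -0.065 to 0.087 over genes. With 3 libraries in a group, such values cannot decide whether the numbers pair the samples, and the labels do not state a pairing. With a replicate block, 26 members were called for CHZ868-treated, 0 for Ruxo-wash, 3 for CHZ868-wash, 0 for the difference between washout effects (6 of all genes, against 191) and 21 for the difference between CHZ868 effects. Not every library correlated best with its own number. Depth limits low genes in the recovered tables and is unknown for Ruxo-wash.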
